A study of Mus musculus with 4 samples.

Results

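Macrophages secrete growth factors and cytokines that act on neighbouring cells during tissue repair, and 10 of the genes encoding them were examined in macrophages given necrotic fat. The genes were taken by symbol from a fixed list: Areg, Hbegf, Pdgfa, Pdgfb, Gdf15, Tgfb1, Igf1, Osm, Spp1 and Gpnmb. All 10 were found among the 17013 genes of the deposited table, and all 10 passed the filter on low values, as did 12470 genes in total. The cells were wild-type mouse macrophages grown from bone marrow, kept for 24 h in a transwell with artificial necrotic bone fluid (aNBF). Below the inserts lay a preparation of digested and freeze-thawed abdominal fat, taken after centrifugation from the middle layer for the fat control medium (Con) or from the top fat layer for the high-fat-containing medium (Fat). The methods give C57BL/6 males as the source of marrow and fat, M-CSF as the factor that differentiated the marrow cells, and aNBF as present with both media. The age of the animals is not given in the sources used here, nor is it stated whether the 2 libraries of each medium came from separate animals or cultures. The p-values therefore measure the spread between these libraries, which may be technical. The design sets macrophages in contact with much fat beside macrophages in contact with little.

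The products fall into families with different receptors and routes of release. Amphiregulin (Areg) and heparin-binding EGF-like growth factor (Hbegf) are made as membrane-bound precursors, are cut free by the sheddase ADAM17 and signal through the EGF receptor. Pdgfa and Pdgfb encode the chains of platelet-derived growth factor, a mitogen for fibroblasts and other mesenchymal cells. Transforming growth factor beta 1 (Tgfb1) is secreted in a latent form and drives matrix production, while Gdf15, a distant member of the same superfamily, is a stress-induced hormone that signals in the brainstem through GFRAL and RET. Insulin-like growth factor 1 (Igf1) supports growth and survival, and oncostatin M (Osm) is a cytokine of the IL-6 family. Osteopontin (Spp1) is a secreted phosphoprotein that binds integrins and CD44, and Gpnmb is a transmembrane glycoprotein of endolysosomes and the cell surface; both are abundant in lipid-laden macrophages.

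The library totals, recovered from the deposited CPM (reads scaled to a fixed library size), lay between 33573852 and 40785872 reads, and 1 read was worth between 0.0244 and 0.0295 CPM. All 8 macrophage markers searched were present, with a summed level of 33919.6 to 35961.8 CPM in Con and 26917.9 to 28503.8 CPM in Fat, and of these Fcgr1 and Mertk were called lower in Fat. Most of the difference in this sum was in Lyz2, at a mean of 27769.6 CPM in Con and 20931.4 CPM in Fat (not called, adjusted p = 0.209). Both Fat libraries lay below both Con libraries for 6 of the 8 (all genes: 26.2%), with a median log2 fold change of -0.20. For Itgam and Cd68 the groups overlapped, with log2 fold changes of 0.07 and 0.09. Of 10 adipocyte markers, 8 had at most 5 reads in each Con library, and Adipoq, Lep and Adrb3 had 0 reads in both. Summed over these 8 genes, Con replicates 1 and 2 held 6 and 7 reads, and Fat replicates 1 and 2 held 422 and 240. The summed level of all 10 adipocyte markers was 29.3 to 30.4 CPM in Con and 34.9 to 37.4 CPM in Fat, most of it from Lipe and Slc36a2, and Car3 and Cidec were called higher. The summed levels in Con and in Fat were 614.2 to 638.3 and 512.9 to 657.1 CPM for 8 stromal fibroblast markers, 5.04 to 6.81 and 7.42 to 7.93 CPM for 6 endothelial markers, 29.8 to 33.7 and 24.6 to 26.4 CPM for 9 lymphocyte markers, 248.4 to 283.1 and 244.6 to 249.7 CPM for 5 granulocyte markers, and 0.400 to 0.442 and 0.509 to 0.781 CPM for 2 mesothelial markers. Among 5 tested stromal markers, 4 were lower in both Fat libraries than in both Con libraries (all genes: 26.2%). The same held for 6 of 8 tested lymphocyte and 3 of 4 tested granulocyte markers. The 2 tested endothelial markers were higher in both Fat libraries (all genes: 29.4%). Of the stromal markers, Dcn was called lower (log2 fold change -0.82, adjusted p = 0.0358). The part of these other cell types in the growth factor values was not tested. In bulk RNA, fewer cells of a type and less RNA per cell cannot be told apart.

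Of the 10 genes, 2 were called higher in Fat and 0 lower, by limma on log2(CPM + 0.1) at an adjusted p-value under 0.05 over all 12470 genes. Across all tested genes, 3.99% were called higher and 5.0% lower. The genes that rose were Areg and Pdgfa. At an unadjusted p-value under 0.05, Gdf15, Pdgfb, Hbegf and Tgfb1 were higher as well and 0 of the 10 were lower. How many of all tested genes pass that unadjusted cut was not determined, so these names cannot be set against a share. EdgeR's quasi-likelihood test on the recovered reads also called 0 lower. The median log2 fold change was 0.20, against 0.01 over all tested genes. Both Fat libraries lay above both Con libraries for 6 of the 10 (all genes: 29.4%) and below them for 2, Osm and Spp1 (all genes: 26.2%). For Igf1 and Gpnmb the groups overlapped. With 2 libraries against 2, an exact two-sided permutation test of a single gene cannot give a p-value below 0.333, so the calls rest on the spread that limma shares across genes. Both calls were lost without Fat replicate 2, and no other was gained there. The median log2 fold change of the 10 was 0.17 without Con replicate 1 and 0.24 without Con replicate 2. It was 0.27 without Fat replicate 1 and 0.14 without Fat replicate 2.

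**Figure D1:**
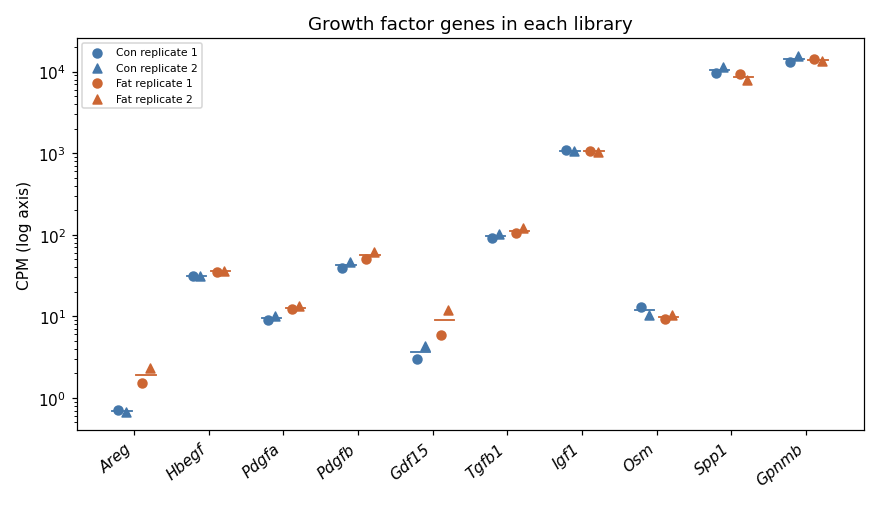
CPM on a log axis for the 10 growth factor genes in each library (circles replicate 1, triangles replicate 2; blue Con, orange Fat; bars are group means, n = 2). Levels ran from Areg, at 0.666 to 2.34 CPM, to Gpnmb, at 13194.4 to 15673.3 CPM.

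**Figure D2:**
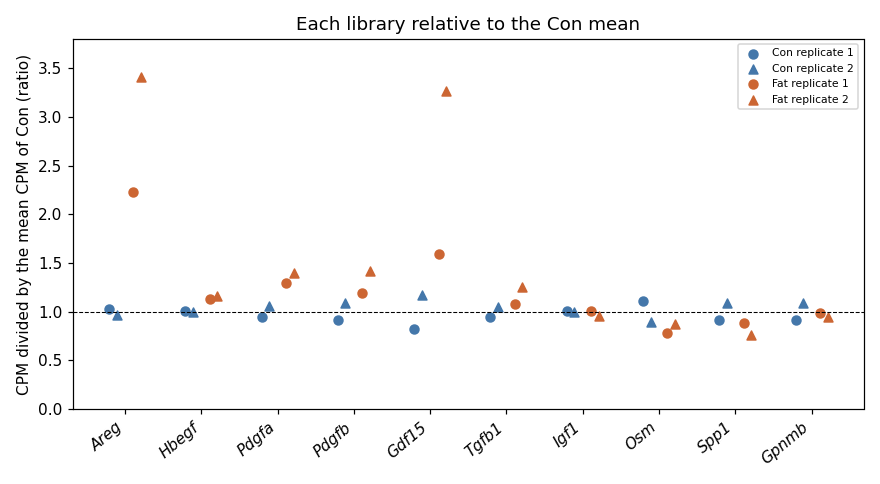
CPM of each library divided by the mean CPM of Con, for the same genes and symbols, with a dashed line at the Con mean. Areg and Gdf15 stand highest in Fat replicate 2, at 3.41 and 3.28 times the Con mean.

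The promoters of the genes with the largest differences are shown here. They are the 250 bases before and 50 after a transcription start in RefSeq (build GRCm38.p6), written 5′ to 3′ on the gene's strand, for Areg (chr5:91139349-91139648, plus strand), Gdf15 (chr8:70632407-70632706, minus strand) and Pdgfa (chr5:138994895-138995194, minus strand). The capitals mark the cAMP response element TGACGTCA, the palindrome bound by the transcription factor CREB.
Areg: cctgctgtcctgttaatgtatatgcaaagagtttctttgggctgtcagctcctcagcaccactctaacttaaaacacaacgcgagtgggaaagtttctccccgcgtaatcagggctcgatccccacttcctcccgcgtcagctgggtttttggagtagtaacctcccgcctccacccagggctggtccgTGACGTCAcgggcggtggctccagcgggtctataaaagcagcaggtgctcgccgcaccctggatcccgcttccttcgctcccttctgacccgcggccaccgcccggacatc
Gdf15: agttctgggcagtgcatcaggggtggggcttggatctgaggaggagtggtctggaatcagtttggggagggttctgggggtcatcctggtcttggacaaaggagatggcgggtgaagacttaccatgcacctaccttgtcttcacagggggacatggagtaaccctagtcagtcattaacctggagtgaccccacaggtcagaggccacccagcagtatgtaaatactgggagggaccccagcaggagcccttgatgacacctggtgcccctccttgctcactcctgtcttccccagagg
Pdgfa: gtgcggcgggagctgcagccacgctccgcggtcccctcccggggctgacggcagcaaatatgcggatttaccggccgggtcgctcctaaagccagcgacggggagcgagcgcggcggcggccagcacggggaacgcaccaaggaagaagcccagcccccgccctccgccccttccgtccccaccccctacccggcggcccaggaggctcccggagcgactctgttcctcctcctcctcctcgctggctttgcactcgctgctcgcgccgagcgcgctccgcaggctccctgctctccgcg

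Promoters were matched by symbol for 7 of the 10 genes, in 10 windows, and were searched on both strands for 4 motifs that do not contain each other. The cAMP response element TGACGTCA was found in the Areg window alone among these 10, starting 61 bases before the start site, and 1.79% of all 32851 windows hold it. The AP-1 letters TGANTCA, present in 7.81% of all windows, occurred in the Igf1 window, 37 bases before the start, and in the Gpnmb window, after the start. The C/EBP-ATF letters TGATGNAA (3.97% of all windows) and the lysosomal CLEAR letters TCACGTGA (0.974%) were not found in the 10 windows. A match describes the letters of these windows, not a site in use.

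Areg, a ligand of the EGF receptor known from repair of epithelium and muscle, had the largest log2 fold change of the 10 genes on this scale, though Gdf15 exceeded it with a pseudocount of 1 (1.03 against 0.78), without Con replicate 2 (1.44 against 1.30) and without Fat replicate 1 (1.71 against 1.63). Its level was 0.708 and 0.666 CPM in Con replicates 1 and 2 and 1.53 and 2.34 CPM in Fat replicates 1 and 2, from 24, 25, 57 and 96 reads. The 95% exact Poisson intervals of the libraries, which cover counting error only, were 0.453 to 1.05 and 0.431 to 0.984 CPM in Con and 1.16 to 1.98 and 1.90 to 2.86 CPM in Fat. Both Fat libraries thus lay above both Con libraries beyond counting error, with Fat replicate 2 the higher. Areg rose by 1.34 on the log2 scale (standard error 0.26, limma adjusted p = 0.0229), a 2.53-fold difference on the log2(CPM + 0.1) scale, and the group means were 1.93 ± 0.576 and 0.687 ± 0.0292 CPM (SD, n = 2 each). Without Fat replicate 2 the log2 fold change was 1.05 and the adjusted p-value 0.121, and without the mean-variance trend the adjusted p-value was 0.0883. Hbegf, the other EGF receptor ligand listed, was at 31.2 and 31.1 CPM in Con and 35.0 and 36.0 CPM in Fat. Its groups did not overlap and its replicates lay close together, but the difference was small, with a log2 fold change of 0.19 (95% interval 0.05 to 0.33, adjusted p = 0.11). Compared per length (TPM, which also divides by gene length), Hbegf exceeded Areg 22.2- and 23.6-fold in the Con libraries and 11.6- and 7.77-fold in the Fat libraries.

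Pdgfa rose and Pdgfb did not pass the test, with log2 fold changes of 0.42 and 0.38. Pdgfa was at 8.93 and 10.02 CPM in Con and 12.3 and 13.2 CPM in Fat, so every Fat library lay above every Con library. Its difference (standard error 0.10, adjusted p = 0.0425) lay between means of 9.48 ± 0.770 and 12.7 ± 0.618 CPM (SD, n = 2 each). The adjusted p-value was 0.166 without Con replicate 1, 0.0653 without Fat replicate 1 and 0.19 without Fat replicate 2, and the call was also absent in DESeq2, without the filter and without the mean-variance trend. Pdgfb was at 39.1 and 46.6 CPM in Con and 51.1 and 60.7 CPM in Fat. The 95% interval of its log2 fold change was 0.13 to 0.64 (adjusted p = 0.073), and it was called in 5 of 14 alternatives, among them by DESeq2 (0.0281), by edgeR's exact test (0.0169), and without Con replicate 2 (0.015) or Fat replicate 1 (0.0238). The ratio of Pdgfb to Pdgfa in TPM was 1.51 and 1.61 in Con and 1.44 and 1.60 in Fat, so the ranges of the chain ratio overlapped between the media.

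Gdf15 had a log2 fold change near that of Areg, but its replicates were uneven and it was not called. It was at 3.04 and 4.32 CPM in Con and at 5.84 and 12.0 CPM in Fat, from 103, 162, 218 and 494 reads. Both Fat libraries were above both Con libraries, and the Fat replicates differed 2.06-fold from each other, a gap on the log2 scale larger than that of 99.4% of the tested genes. The Con replicates differed 1.42-fold, a gap larger than that of 95.7%. Its log2 fold change was 1.19 (standard error 0.32, 95% interval 0.45 to 1.93, adjusted p = 0.0625), short of a call. It was called in 5 of 14 alternatives, among them after rescaling by median ratios (adjusted p = 0.0492), in edgeR's exact test (0.00191), without Con replicate 2 (0.0259) and without Fat replicate 1 (0.00157). The 8 adipocyte markers near 0 in Con summed to 422 reads in Fat replicate 1 and 240 in Fat replicate 2, and all 10 to 1397 and 1430, and their part in the Gdf15 and Areg values was not tested. Tgfb1 was at 91.3 and 101.4 CPM in Con and 103.7 and 121.1 CPM in Fat, with a log2 fold change of 0.22 (95% interval 0.02 to 0.42, adjusted p = 0.174). The lowest Fat library of Tgfb1 exceeded the highest Con library by less than the Fat replicates differed.

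Igf1, a growth factor that macrophages release in muscle and bone repair, did not differ detectably between the media. It was at 1078.8 and 1065.9 CPM in Con and 1077.1 and 1027.2 CPM in Fat, and the groups overlapped. Its log2 fold change was -0.03, and its 95% interval of -0.18 to 0.13 bounds the difference more narrowly than for the other genes except Hbegf (adjusted p = 0.844). Osm, which acts on stromal cells and osteoblast precursors, was at 13.1 and 10.5 CPM in Con and 9.16 and 10.3 CPM in Fat. Its log2 fold change was -0.27 (95% interval -0.57 to 0.03, adjusted p = 0.247), and Con replicate 2 and Fat replicate 2 lay close together.

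Spp1 and Gpnmb were among the most abundant transcripts in these cells, ranking 11th and 5th by mean CPM. Spp1 was at 9493.7 and 11354.4 CPM in Con and 9219.4 and 7879.7 CPM in Fat, and held 1.05% of the reads of Con and 0.852% of those of Fat. Both Fat libraries lay below both Con libraries, but Con replicate 1 and Fat replicate 1 were near each other. The log2 fold change of -0.28 (95% interval -0.64 to 0.07, adjusted p = 0.305) did not pass. No alternative called Spp1, but its log2 fold change was negative in each, from -0.41 to -0.16. The adjusted p-value was 0.0559 in DESeq2 and 0.0884 in edgeR's exact test. In the GENCODE vM21 transcripts, 5.36% of the 75-base stretches of Spp1 also occur in Gm42793, an overlapping gene on the same strand that was not analysed here. Gpnmb was at 13194.4 and 15673.3 CPM in Con and 14262.9 and 13618.1 CPM in Fat, the Fat values lying between those of Con. Its log2 fold change was -0.05 (95% interval -0.41 to 0.32, adjusted p = 0.9). Among the other 9 genes, Pdgfa shares exon positions with 6330403L08Rik on the opposite strand, and since the counting is not stated to use strand, reads of these neighbours cannot be told apart.

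**Figure D3:**
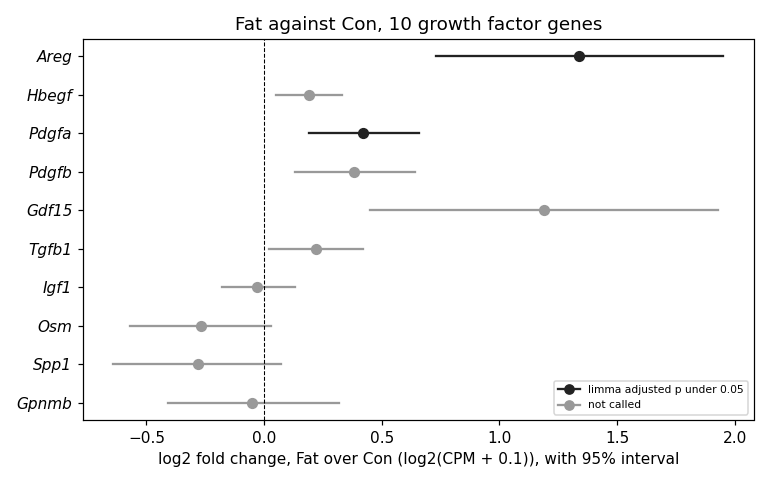
Log2 fold change of Fat over Con with its 95% interval from limma for the 10 growth factor genes, black where the adjusted p-value was under 0.05 and grey elsewhere. Areg (1.34) and Pdgfa (0.42) are black, and the interval of Gdf15 is the widest, from 0.45 to 1.93.

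Ordered by level per length in Con, the genes ran from Spp1 (13611.5 ± 1531.7 TPM, SD, n = 2) through Gpnmb (8228.0 ± 886.5), Igf1 (297.3 ± 6.62), Tgfb1 (99.6 ± 5.98), Pdgfb (31.5 ± 3.46), Hbegf (28.4 ± 0.429), Pdgfa (20.2 ± 1.36), Osm (13.5 ± 2.27) and Gdf15 (7.34 ± 1.71) to Areg (1.24 ± 0.0698). The ranges of neighbours in this order did not overlap, though Pdgfb and Hbegf were separated by less than the SD of Pdgfb. In Fat the order differed only in that Gdf15 (18.3 ± 8.96 TPM) stood before Osm (11.3 ± 0.922 TPM), and there the ranges of these neighbours overlapped. The ratio of Gdf15 to Osm in TPM was 0.407 and 0.722 in Con and 1.12 and 2.06 in Fat.

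Likeness of pattern was measured as the Euclidean distance between log2(CPM + 0.1) profiles centred on each gene's own mean over the 4 libraries, and is given as a description. For Areg the nearest of the tested genes were Ppfia3, Polr2k and Mir8114, at distances of 0.23, 0.26 and 0.27. For Gdf15 they were Timm23, Erdr1 and Nxph3, at 0.34, 0.36 and 0.38, and for Pdgfa they were Bdh2, Fam162a and Tes, at 0.01, 0.03 and 0.03. Among the growth factor genes themselves, Areg and Gdf15 lay 0.53 apart, nearer to each other than either was to any of the other 8. Timm23, Polr2k and Erdr1 may have near-identical copies elsewhere in the genome, so their values are uncertain. Shared sequence was searched only for the growth factor genes, not for these nearest genes.

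A list of 33 genes named for other ligands of the same families, 18 of them tested, gave 0 called higher and 2 called lower (all genes: 3.99% and 5.0%). It includes Bmp1 (log2 fold change -0.03), whose product is a protease and not a ligand. The median log2 fold change of the 18 was -0.09. At an unadjusted p-value under 0.05, 2 were higher, Clcf1 and Fgf7, and edgeR's quasi-likelihood test called 1 of them, Clcf1, higher. In the other direction 4 were lower at that level, the called Pdgfc and Nrg1 and also Lif (log2 fold change -0.29, adjusted p = 0.126) and Inhbb (-0.41, adjusted p = 0.141). No share of all genes was determined at the unadjusted level. Pdgfc, a further PDGF ligand, was at 27.6 and 25.5 CPM in Con and 19.9 and 20.3 CPM in Fat. It fell by 0.40 in log2 units (limma adjusted p = 0.0201), opposite in sign to Pdgfa. Nrg1, a ligand of ERBB3 and ERBB4, was a low-level gene at 0.767 and 1.39 CPM in Con and 0.321 and 0.293 CPM in Fat, a log2 fold change of -1.48 (adjusted p = 0.0395). Both calls were lost in some fits with a library left out, with adjusted p-values up to 0.0824 for Pdgfc (without Con replicate 1) and 0.19 for Nrg1 (without Con replicate 2). The log2 fold change of Nrg1 moved between -1.09 and -1.87 as each Con library was left out, and was -0.65 with a pseudocount of 1 (adjusted p = 0.0567). Ereg, the gene of epiregulin and a close relative of Areg, was at 3.13 and 2.24 CPM in Con and 2.95 and 2.68 CPM in Fat (log2 fold change 0.08, adjusted p = 0.838).

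Of 25 tested receptor genes, 6 were called higher and 1 lower (all genes: 3.99% and 5.0%), with a median log2 fold change of 0.05. Ret encodes the tyrosine kinase co-receptor through which GDF15, bound to GFRAL, signals, and is also the receptor of the glial cell line-derived neurotrophic factors. It was at 3.18 and 2.93 CPM in Con and 8.60 and 9.12 CPM in Fat, with replicates close together in each medium. Ret rose by 1.51 on the log2 scale (standard error 0.12, adjusted p = 0.0026), a 2.84-fold difference, and was called in every fit with a library left out. Gfral was not analysed here. Itgav and Itgb3 encode the chains of the integrin that binds osteopontin and latent TGF-beta. Itgav was at 142.1 and 134.8 CPM in Con and 187.2 and 194.2 CPM in Fat (log2 fold change 0.46, adjusted p = 0.00514), and Itgb3 at 21.9 and 22.1 CPM in Con and 27.8 and 28.6 CPM in Fat (log2 fold change 0.36, adjusted p = 0.0207). Itga5, which pairs with Itgb1 to bind fibronectin, rose by 0.28 (adjusted p = 0.0285), while Cd44, another osteopontin receptor, was not called (log2 fold change 0.25, adjusted p = 0.0852). The other listed integrin genes were not called, with log2 fold changes of -0.27 for Itga4, -0.14 for Itga9, 0.05 for Itgb1 and 0.07 for Itgb5.

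Igf1r and Igf2r, receptors of the insulin-like growth factors, rose, while the listed Insr was not called (log2 fold change 0.00, adjusted p = 0.99). Whether Igf1r and Igf2r moved differently from Igf1, which was not called, was not tested. Igf1r was at 44.6 and 44.4 CPM in Con and 51.7 and 56.3 CPM in Fat (log2 fold change 0.28, adjusted p = 0.0396), and Igf2r, a clearance receptor for IGF2, was also called (log2 fold change 0.24, adjusted p = 0.0342). Eng, a co-receptor of TGF-beta, was the receptor gene called lower (log2 fold change -0.28, adjusted p = 0.0429), while Tgfbr1 and Tgfbr2 had log2 fold changes of 0.06 and -0.13 and were not called. The receptors of the called ligands did not pass the test. Egfr was at 5.07 and 4.80 CPM in Con and 4.72 and 5.76 CPM in Fat (log2 fold change 0.08, adjusted p = 0.784). Pdgfra was at 11.0 and 9.46 CPM in Con and 6.22 and 8.29 CPM in Fat (log2 fold change -0.50, adjusted p = 0.0946), and Pdgfrb was not called (log2 fold change -0.09, adjusted p = 0.666). The count of receptor genes called higher was 3 without Con replicate 1, 4 without Fat replicate 1 and 2 without Fat replicate 2, with Ret and Itgav called in each of these fits. The other 5 receptor calls were each lost in at least 2 of the 4 fits with a library left out, and all 5 without Fat replicate 2, with adjusted p-values there of 0.101 for Itgb3, 0.0516 for Itga5, 0.129 for Igf2r, 0.228 for Igf1r and 0.225 for Eng.

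**Figure D4:**
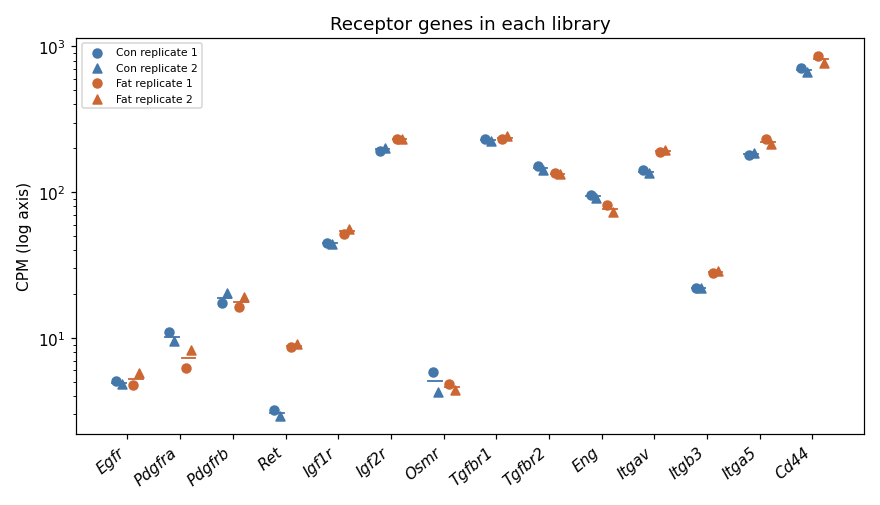
CPM on a log axis for 14 receptor genes in each library, with symbols and colours as in the plot of growth factor levels and bars at the group means (n = 2). Ret lies at 3.18 and 2.93 CPM in Con and at 8.60 and 9.12 CPM in Fat, while the groups overlap for Egfr and Pdgfrb.

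Among 18 tested genes for shedding, latency and binding proteins, 5 were higher and 4 lower at an unadjusted p-value under 0.05. A share of all genes at that unadjusted level was not determined, so these counts are a description. EdgeR's quasi-likelihood test called 0 lower, and limma after adjustment called 1 higher and 0 lower (all genes: 3.99% and 5.0%). The gene that rose was Igfbp5, a binding protein for IGF1, at 14.3 and 11.6 CPM in Con and 19.4 and 21.8 CPM in Fat (log2 fold change 0.67, adjusted p = 0.0165, and 0.0534 without Fat replicate 2). Neither Adam17, the sheddase of Areg and Hbegf (log2 fold change -0.19, adjusted p = 0.0965), nor Adam10 (0.04, adjusted p = 0.715) was called. The other genes of this list at an unadjusted p-value under 0.05 were Rhbdf1, Ltbp3, Lrrc32 and Thbs1, higher in Fat, and Adam17, Rhbdf2, Ltbp2 and Htra1, lower. Of the proteins that hold latent TGF-beta, Nrros had a log2 fold change of 0.05, Ltbp3 of 0.34 and Lrrc32 of 0.32, and none of these 3 was called. In a list of 15 genes that respond to TGF-beta, 1 was called higher and 2 lower (all genes: 3.99% and 5.0%), with a median of -0.05. Smad7, an inhibitor of the pathway, was at 9.76 and 10.6 CPM in Con and 14.8 and 14.4 CPM in Fat (log2 fold change 0.52, adjusted p = 0.0163, and 0.0554 without Con replicate 1). Id2 fell by 0.38 (adjusted p = 0.017, and 0.0682 without Fat replicate 2). Ctgf, which encodes a matrix-associated growth factor, fell by 0.26 (adjusted p = 0.0493, lost without Con replicate 1, Con replicate 2 or Fat replicate 1, with values up to 0.202).

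Areg is known as a target of CREB in many cells, and a list of 13 other genes induced through cAMP and CREB was examined beside it. Of 11 tested, 5 were called higher and 0 lower (all genes: 3.99% and 5.0%), with a median log2 fold change of 0.39 against 0.01 over all genes. With an unadjusted p-value under 0.05, 0 were lower, and with edgeR's quasi-likelihood test 0. The list was chosen with earlier results of these data known, so these counts are a description. Nr4a1, an orphan nuclear receptor of the immediate early class, was at 2.59 and 3.49 CPM in Con and 5.41 and 7.83 CPM in Fat (log2 fold change 1.09, adjusted p = 0.0234). Ptgs2, the cyclooxygenase that makes the precursor of prostaglandin E2, was at 33.8 and 25.7 CPM in Con and 44.3 and 47.4 CPM in Fat (log2 fold change 0.64, adjusted p = 0.0216). The log2 fold changes of the others called were 0.41 for the AP-1 subunit gene Fosl2 (adjusted p = 0.0206), 0.39 for thrombomodulin, Thbd (0.0207), and 0.39 for the clock gene Per1 (0.0226). Crem, Sik1, Nr4a2, Pde4b, Pde4d and Rgs2 were not called, with log2 fold changes from -0.29 to 0.41. The count called higher was 2 without Con replicate 1 and 0 without Fat replicate 2, when the adjusted p-values of these 5 genes lay between 0.0566 (Fosl2) and 0.118 (Per1). Of the 8 tested genes in this list with a promoter window, 0 held TGACGTCA. Only these full letters were searched for, in the 250 bases before and 50 after a start, and a role of CREB was not tested. Across all tested genes with a window, 340 of 9348 held the element. Of these 340 genes, 17 (5%) were called higher (median log2 fold change 0.03), and of those without it 351 (3.9%, median 0.01).

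Spp1 and Gpnmb are usually described together with other genes of lipid-laden macrophages, and 15 of these were tested. Of them 1 was called higher and 1 lower (all genes: 3.99% and 5.0%), and the median log2 fold change was 0.02. Plin2, the coat protein of lipid droplets, was at 1323.6 and 1390.4 CPM in Con and 3817.5 and 3702.8 CPM in Fat (log2 fold change 1.47, adjusted p = 0.000541). Fabp5, a fatty acid carrier, was at 1349.5 and 1418.9 CPM in Con and 1066.2 and 1044.8 CPM in Fat (log2 fold change -0.39, adjusted p = 0.0165, and 0.0769 without Fat replicate 2). The lipid receptor gene Trem2 was not called (log2 fold change -0.03, adjusted p = 0.903), as Spp1 and Gpnmb were not. The uncalled genes of this list at an unadjusted p-value under 0.05 were Cd36, Ctsl and Fabp4. Their log2 fold changes were 0.36 (adjusted p = 0.163), 0.35 (0.15) and -0.16 (0.174).

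**Figure D5:**
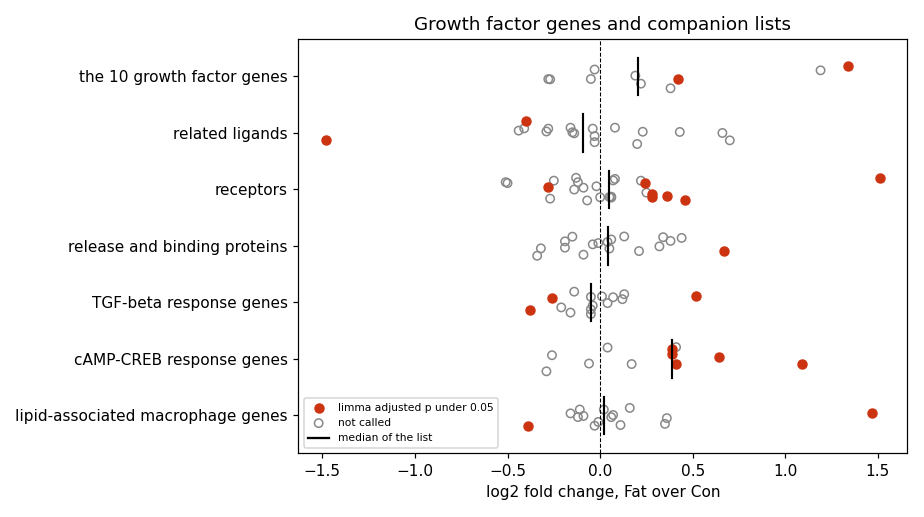
Log2 fold change of Fat over Con for each tested gene of the growth factor list and the 6 companion lists (red, limma adjusted p under 0.05; open, not called; black bars, list medians; vertical scatter is for display only). The medians lie between -0.09 and 0.05 except for the growth factor genes (0.20) and the cAMP-CREB response genes (0.39).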

How the data were processed

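Polyadenylated RNA of the 4 libraries, 2 from Con and 2 from Fat, was prepared with a stranded mRNA kit and sequenced as single reads. The authors deposited CPM (reads scaled by library size, with a further factor per library between 0.990 and 1.01) and TPM (also scaled for gene length) for 17013 gene symbols. The submitters' processing notes name build GRCm39. The aligner, counter and annotation are not given in the sources used here, and the study's methods name edgeR. Groups were taken from the sample titles. Dividing each CPM value by that of 1 read gave whole numbers throughout (100% of values, within 0.001 reads), so reads were recovered. Intervals on them cover counting error only.

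Genes reaching 0.5 CPM in 2 or more libraries, 12470 in number, entered the test. Their log2(CPM + 0.1) values were compared between Fat and Con by limma 3.58.1 in R 4.3.3, the variance prior following the mean, and p-values were adjusted over all of them by the Benjamini-Hochberg method. All p-values are two-sided limma values unless named otherwise. TPM were used to compare levels between genes. The growth factor genes and all lists were chosen with earlier results of these data known, so their counts are descriptions. Named are all growth factor genes, up to 4 called genes per list and direction, receptors of called ligands, and the 3 nearest profiles; further list members were named after their values were seen.

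The alternatives changed 1 choice at a time: the pseudocount (1), the filter (none, or a mean CPM of 5), the unit (TPM), the scaling (median ratios), the trend (none), the replicate number as a block, and the libraries (each left out). Recovered reads were also tested with the exact and quasi-likelihood tests of edgeR 4.0.16 and with DESeq2 1.42.0. The fits were tested on simulated data, where DESeq2 recovered fewer of the known differences than limma and edgeR, and the bar set for all tools was lowered after this was seen. Shared sequence was searched as exact 75-base stretches in GENCODE vM21 transcripts, and promoters came from RefSeq on GRCm38.p6. Python 3.11.15 was used for tables and figures.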

Additional observations from a re-analysis of the deposited data

How the results depend on the processing

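Of 139 alternative values for the 10 growth factor genes, 116 kept their direction and side of the threshold, 8 lost a call, 12 gained one and 3 changed sign. The number called higher, 2 of 10, was 1 without the filter (Areg) and 1 at a mean of at least 5 CPM (Pdgfa, since Areg is then not tested). It was 0 without the mean-variance trend, where 31 genes were called in all, and 4 with edgeR's exact test. With a library left out it lay between 0 (without Fat replicate 2) and 4 (without Con replicate 2), and 1 without Con replicate 1. The number called lower was 0 in every alternative run. The number of all genes called also changed between fits, so a change in these counts need not be particular to the 10 genes. The median log2 fold change moved by less than its replicate SD of 0.10. The log2 fold change changed sign for Igf1 with TPM (0.00). With a library left out it changed sign for Igf1 (-0.06 to 0.01), Gpnmb (-0.17 to 0.08), Egfr (-0.06 to 0.22), Erbb2 (-0.01 to 0.12) and Pdgfrb (-0.21 to 0.03). The cause was not tested.

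With the replicate number as a block, 6 of the 10 genes were called higher (Areg, Gdf15, Hbegf, Pdgfa, Pdgfb and Tgfb1), and 2520 genes in all against 1122. Over all genes, 666 were called without Con replicate 1 and 529 without Fat replicate 2. The labels give only numbers, and the deviations of libraries bearing the same number correlated at 0.20 over 12470 genes and at 0.339 over the 9760 whose mean CPM reached 5. The blocked adjusted p-value was 8.52e-08 for Gdf15 and 1.39e-05 for Pdgfb, and replicate 2 lay above replicate 1 in both media for these genes. Areg rests on few reads, 24 to 96 per library, and the part of depth in its lost calls was not tested.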
